A study of Mus musculus with 27 samples.

Results

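Of 21823 genes in the expression table, 10 genes of the cellular response to low oxygen were followed through 3 lobular zones of the mouse liver and 3 reproductive stages. The 10 genes were taken by symbol: Hif1a, Epas1, Egln1, Egln3, Vegfa, Adm, Slc2a1, Bnip3, Pdk1 and Ndrg1, and all 10 were found as protein-coding genes. RNA of zones 1, 2 and 3 was sequenced after laser microdissection, in which areas of a liver section are cut out under the microscope. By convention zone 1 surrounds the portal vein, zone 3 surrounds the central vein and zone 2 is the stretch between. All mice were labelled female, C57BL/6 (C57BL/6N in the study's methods) and WT, with no treatment named. They were sampled when not pregnant (NP), 8 days after mating (dpc8, days post coitum) or 16 days after mating (dpc16). Each of the 9 groups of stage and zone held 3 libraries, 27 in all. The labels number the libraries within a group but do not tie them to mice, while the study's text describes the libraries as independent experiments and its experiments in general as made in different mice. The p-values measure the spread between these libraries. The comparisons asked whether these genes differ along the lobule and whether their levels change in pregnancy.

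Cells sense oxygen through hypoxia-inducible factors (HIF). Prolyl hydroxylases use oxygen to mark the alpha subunits of HIF for destruction, so in low oxygen the subunits persist, pair with a beta subunit and switch on genes for glucose uptake, glycolysis, vessel growth and mitochondrial adjustment. In the liver, blood loses oxygen as it flows from the portal to the central vein. The alpha subunits are controlled mainly as proteins, which were not measured here.

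Levels are in FPKM, in which a gene's fragments are divided by its transcript length and by all fragments mapped in the library. The values rise in steps, from which 1 read per kilobase was estimated to be worth 0.0298 to 0.132 FPKM, depending on the depth of the library. In zone 1, 6 periportal markers summed to between 1420 and 3555 FPKM, against 6.98 to 79.7 in zone 3. In zone 3, 7 pericentral markers summed to between 6720 and 18101 FPKM, against 242 to 464 in zone 1, so the zone labels held for these markers. Despite the label female, 4 Y-linked genes summed to 7.92 to 23.2 FPKM in 6 libraries and to at most 2.97 in the other 21. Libraries with a sum above 5 FPKM are called libraries with Y-linked signal, and some of the other 21 held a lower signal. The 6 are replicate 1 of zone 1 and replicate 2 of zone 3 in NP, replicate 1 of zone 1 and replicate 2 of zone 2 at dpc8, and replicate 3 of zones 2 and 3 at dpc16. In them 8 markers of connective tissue and smooth muscle summed to 865 to 4593 FPKM, against 13.6 to 538 in the others. Calls that rest on these libraries are given with and without them.

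HIF binds DNA at a short core, read here as ACGTG or GCGTG on either strand. RefSeq promoter windows (GRCm38.p6) were found for 8 of the 10 genes, all but Epas1 and Ndrg1. In the 250 bases before the start, 7 of these 8 genes held a core in their first listed window, as did 38.6% of all first windows of 27025 genes. Vegfa had none in its first window and 2 in a second listed window (chr17:46025114-46025413, minus strand). The core nearest the start is shown for the 3 genes with changes described below (Hif1a, Egln3 and Pdk1). It is also shown for Slc2a1 and Adm, whose highest values were in the libraries with Y-linked signal. The sequences run 5′ to 3′ on the strand of the gene, with the core in capitals. In Adm the core lies on the opposite strand and reads CACGC.
Hif1a, chr12:73907785-73907813, plus strand, core from 70 bases before the start: tggctgagagcaACGTGggctggggtggg
Egln3, chr12:54204087-54204115, minus strand, core from 229 bases before the start: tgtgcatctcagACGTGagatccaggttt
Pdk1, chr2:71873134-71873162, plus strand, core from 78 bases before the start: ccgcctacatggGCGTGtctttaaccagg
Slc2a1, chr4:119108697-119108725, plus strand, core from 36 bases before the start: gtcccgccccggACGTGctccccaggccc
Adm, chr7:110627591-110627619, plus strand, core from 54 bases before the start: ggcaaatctgacCACGCccaccgtccgcc
A match is only a run of letters, and binding of HIF was not measured.

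All 10 genes passed the filter for testing (a value of 1 FPKM or more in 3 or more libraries), and 9 of them reached FPKM 1 in all 27 libraries. Adm did so in 18. On the FPKM scale, which allows for transcript length, Epas1 had the highest median over the 27 libraries, at 95.6 FPKM (lowest 35.1, highest 158). Bnip3 followed with a median of 80.1 FPKM (30.5 to 142), Pdk1 with 52.2 (16.2 to 151) and Vegfa with 50.9 (31.8 to 89.0). These 4 ranges overlapped. Hif1a stood lower, at a median of 19.0 FPKM (11.2 to 34.6), so that even its highest library lay below the lowest library of Epas1. Ndrg1 had a median of 11.05 FPKM (3.67 to 47.7), Egln1 of 8.82 (6.48 to 14.1), Egln3 of 7.98 (1.78 to 23.4) and Slc2a1 of 5.99 (2.40 to 32.7), again with overlapping ranges. Adm was lowest, with a median of 1.33 FPKM, and ran from 0.377 to 56.3. In the library with the fewest reads behind Adm its value stood for about 4.22 reads per kilobase, against at least 18.2 for each of the 9 other genes. The plot of the 10 genes by stage and zone shows every library.

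**Figure D1:**
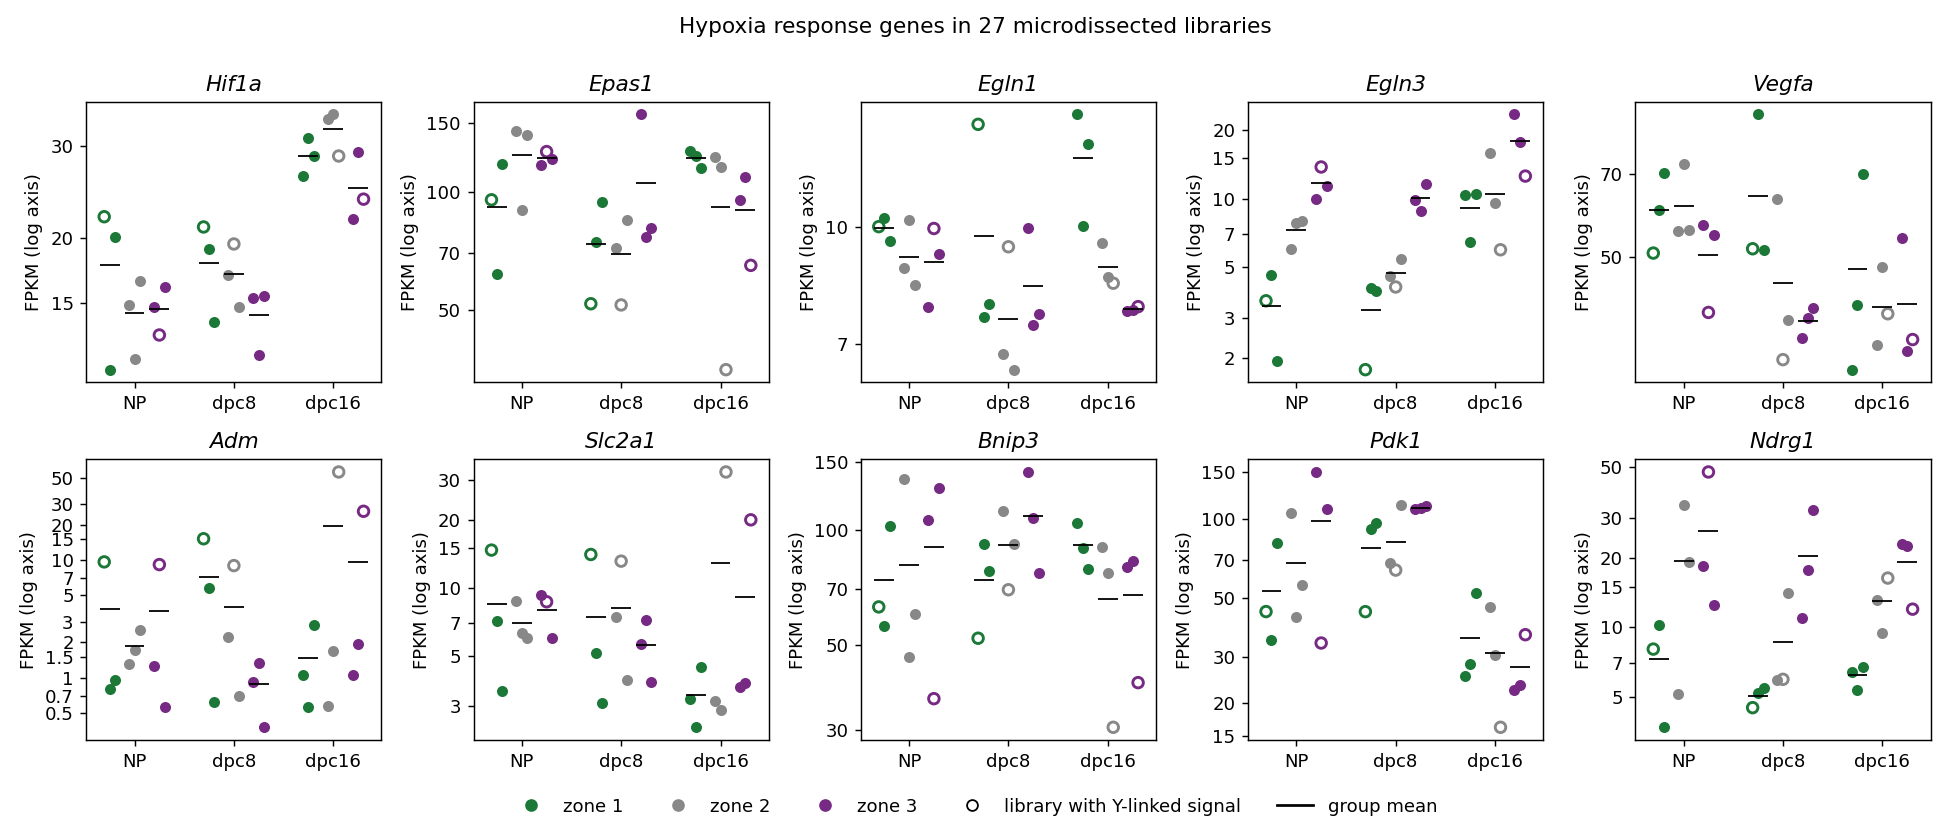
FPKM (log axis) of the 10 genes in 27 libraries, by stage and, within a stage, by zone 1 (green), zone 2 (grey) and zone 3 (purple). Open circles are the 6 libraries with Y-linked signal and bars are means of 3 libraries. Egln3 and Ndrg1 rise from zone 1 to zone 3 at each stage, Hif1a is highest and Pdk1 lowest at dpc16, and the high values of Adm are open circles.

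Along the lobule, 2 of the 10 genes differed between zones 1 and 3 averaged over stages, and both were lower in zone 1: Egln3 and Ndrg1. Over all 12952 genes tested, 5.59% passed the threshold in this comparison. The median log2 difference of the 10 genes was -0.11, against 0.04 for all genes. The other 8 genes did not pass. In these bulk samples, fewer cells of a type and less RNA per cell cannot be told apart. Without the 6 libraries with Y-linked signal, 6 stellate cell markers summed to 88.9 to 152 FPKM in zone 1 and 168 to 229 in zone 3. The sums of 6 biliary markers went the other way, with 40.8 to 142 FPKM and 0.0884 to 25.5. Sums of endothelial and of Kupffer cell markers overlapped between these zones. The part of these cell types in the zone differences was not tested.

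Egln3 (chr12:54178981-54203860, mm10, minus strand) encodes the prolyl hydroxylase PHD3, which marks HIF alpha subunits and whose own gene is a HIF target. Its values in NP were 3.57, 4.61 and 1.94 FPKM in zone 1, then 6.04, 7.85 and 7.98 in zone 2, then 9.99, 13.8 and 11.4 in zone 3. At dpc8 they were 1.78, 4.04 and 3.94 FPKM in zone 1, then 4.59, 4.10 and 5.45 in zone 2, then 9.82, 8.84 and 11.6 in zone 3. At both stages every library of zone 1 lay below every library of zone 2, and every library of zone 2 below every library of zone 3. The dpc16 values were 10.4, 6.47 and 10.46 FPKM in zone 1, then 15.9, 9.53 and 5.97 in zone 2, then 23.4, 17.8 and 12.5 in zone 3. There zones 1 and 3 still did not overlap, while zone 2 overlapped both. Averaged over stages, zone 1 was lower than zone 3 by a log2 difference of -1.30 ± 0.18 (SE, limma adjusted p = 3.62e-05). Zone 2 was also lower than zone 3, with -0.78 ± 0.18 (limma adjusted p = 0.0213), in a comparison in which 1.88% of all genes and 1 of the 10 genes passed. That call was lost without dpc8 zone 3 replicate 3 (-0.75, limma adjusted p = 0.0568) and without dpc16 zone 3 replicate 1 (-0.71, limma adjusted p = 0.0627), and kept without the 6 libraries with Y-linked signal (-0.69 ± 0.17, limma adjusted p = 0.0409). Between zones 1 and 2 none of the 10 genes passed by limma (0.919% of all genes did). An unadjusted p below 0.05 was held by 3 of them, Egln3 with -0.52 ± 0.18 included, and by 820 of all 12952 genes.

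Taken stage by stage, the difference in Egln3 between zones 1 and 3 was -1.58 ± 0.32 in NP (limma adjusted p = 0.00696) and -1.43 ± 0.32 at dpc8 (limma adjusted p = 0.0169). Of the 10 genes it alone was past the threshold at either stage, where 1.34% and 1.61% of all genes passed. At dpc16 it was -0.89 ± 0.32 (limma adjusted p = 0.28), and none of the 10 genes passed (1.55% of all genes did). There 3 of the 10, and 1018 of all 12952 genes, had an unadjusted p below 0.05. The difference between dpc16 and NP in this zonal step was 0.69 ± 0.45 (limma adjusted p = 0.993), so a smaller step at dpc16 was not shown. The NP call was lost without NP zone 1 replicate 3 (-1.32, limma adjusted p = 0.0648). The dpc8 call was lost without dpc8 zone 1 replicate 1 (-1.14, limma adjusted p = 0.138), zone 3 replicate 1 (-1.44, 0.0566) or zone 3 replicate 3 (-1.33, 0.11). Both calls were also lost when only the 6 libraries compared were fitted. Without the 6 libraries with Y-linked signal, the averaged difference was -1.26 ± 0.17 (limma adjusted p = 0.000124), and the differences in NP and at dpc8 were -1.52 and -1.14, both past the threshold.

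Ndrg1 (chr15:66929318-66969640, mm10, minus strand) encodes a cytoplasmic protein induced by hypoxia and other stress. In zone 1 it measured 8.05, 10.2 and 3.67 FPKM in NP, 4.47, 5.15 and 5.42 at dpc8 and 6.42, 5.36 and 6.75 at dpc16. In zone 3 it measured 18.5, 47.7 and 12.6 FPKM in NP, 11.05, 17.8 and 32.6 at dpc8 and 23.2, 22.6 and 12.02 at dpc16. Every zone 3 library, of any stage, lay above every zone 1 library. How many of all tested genes separate in this way was not counted, here or for the other groups said not to overlap. Zone 2 ran from 5.11 to 34.2 FPKM and overlapped both. Averaged over stages, the log2 difference between zones 1 and 3 was -1.58 ± 0.31 (limma adjusted p = 0.00185). Within stages it was -1.59, -1.71 and -1.45 in NP, dpc8 and dpc16, each ± 0.54 and none past the threshold (limma adjusted p = 0.253, 0.136 and 0.331). Under a replicate block, in which the library number is a term of the fit, the dpc8 difference passed (limma adjusted p = 0.0307). The averaged calls of both genes were kept when any single library of zone 1 or zone 3 was left out, with limma adjusted p up to 0.000155 for Egln3 and 0.00624 for Ndrg1. Ndrg1 differed by -1.52 ± 0.35 without the 6 libraries with Y-linked signal (limma adjusted p = 0.00995).

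Egln1 and Vegfa had estimates of the opposite sign that did not pass. Egln1 encodes PHD2, the main prolyl hydroxylase of HIF alpha subunits, and Vegfa encodes a secreted growth factor of blood vessels. Egln1 had 7.61, 10.01 and 14.1 FPKM as lowest, median and highest of 9 libraries in zone 1, and 7.41, 7.84 and 9.95 in zone 3. These groups overlapped, with a difference of 0.30 ± 0.12 (limma adjusted p = 0.191). At dpc16 alone the groups did not overlap, with 14.1, 10.01 and 12.9 FPKM in zone 1 and 7.74, 7.76 and 7.85 in zone 3, a difference of 0.59 ± 0.20 (limma adjusted p = 0.266). Vegfa had 31.8, 51.8 and 89.0 FPKM as lowest, median and highest in zone 1, and 34.3, 40.0 and 56.9 in zone 3. Its groups overlapped as well, with a difference of 0.36 ± 0.17 (limma adjusted p = 0.289). At dpc8 alone they did not overlap, with 51.8, 89.0 and 51.5 FPKM in zone 1 and 36.1, 39.1 and 40.8 in zone 3, a difference of 0.67 ± 0.29 (limma adjusted p = 0.333).

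The plot of fitted differences sets the 3 averaged comparisons side by side.

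**Figure D2:**
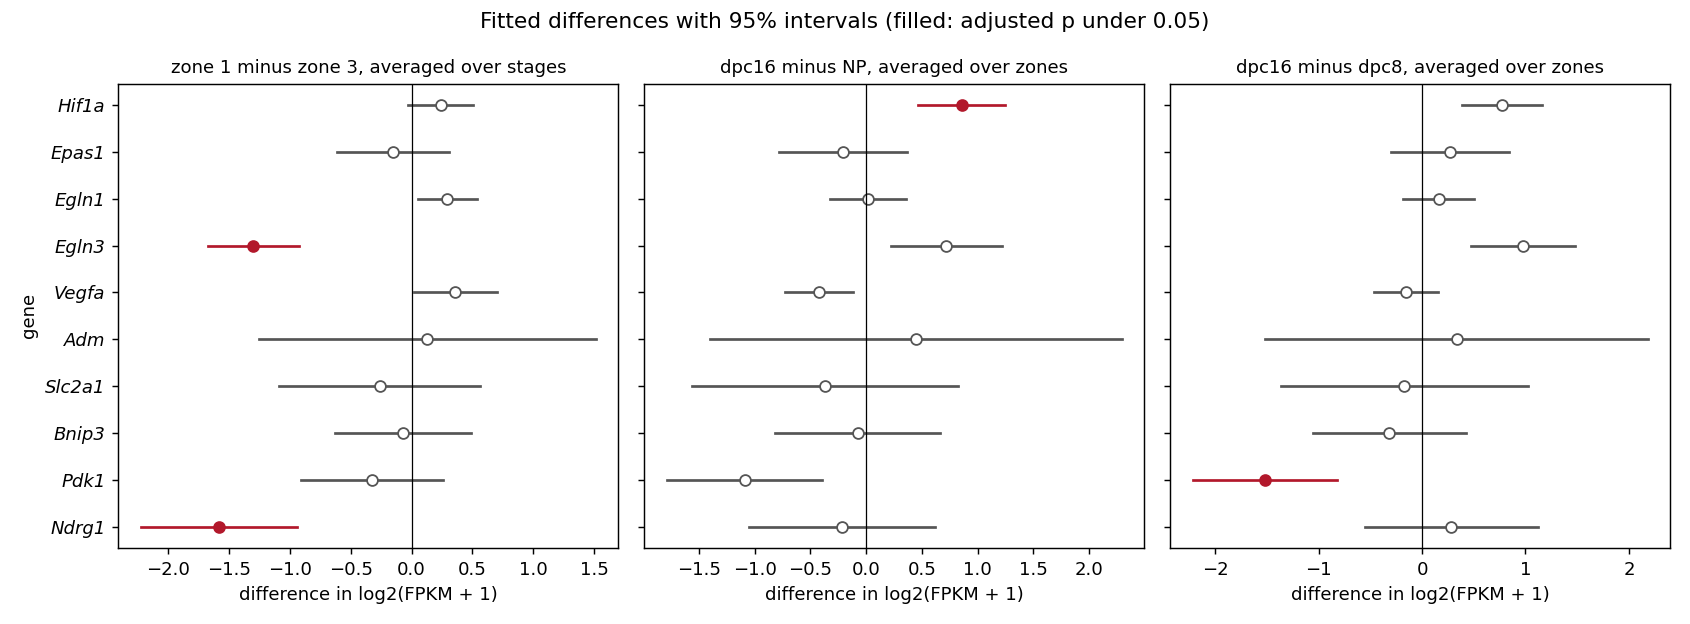
Fitted differences in log2(FPKM + 1) with 95% intervals for the 10 genes: zone 1 minus zone 3 over 27 libraries, and dpc16 minus NP and dpc16 minus dpc8 over 9 profiles. Filled red points passed the limma threshold: Egln3 (-1.30) and Ndrg1 (-1.58) between zones, Hif1a (0.86) against NP and Pdk1 (-1.52) against dpc8. Adm has the widest intervals.

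In pregnancy the differences that passed were at dpc16, where Hif1a was higher than in NP and Pdk1 lower than at dpc8. For stage comparisons averaged over zones, the 3 zone libraries with the same stage and number were averaged into 1 profile, 3 profiles per stage. Of the 10 genes, 1 passed for dpc16 against NP (3.08% of all genes), 1 for dpc16 against dpc8 (2.14%) and none for dpc8 against NP (0.0154%). In the last comparison limma called 2 genes in all, and none of the 10 had an unadjusted p below 0.05 (410 of all 12952 genes did). The median log2 differences of the 10 genes were -0.14, 0.22 and -0.17 for these comparisons in that order, against -0.01, -0.01 and 0.00 for all genes. The comparisons of dpc16 with NP and with dpc8 share the dpc16 libraries.

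Hif1a (chr12:73901375-73947530, plus strand; gene coordinates follow GENCODE vM21) encodes the alpha subunit of HIF-1. In NP it measured 21.98, 11.2 and 20.1 FPKM in zone 1, 14.9, 11.7 and 16.5 in zone 2, and 14.7, 13.03 and 16.1 in zone 3. Values at dpc8 were 21.003, 19.0 and 13.8 FPKM in zone 1, 17.0, 19.5 and 14.7 in zone 2, and 15.3, 11.9 and 15.5 in zone 3. By dpc16 they were 26.3, 31.2 and 28.7 FPKM in zone 1, 33.9, 34.6 and 28.7 in zone 2, and 21.7, 29.3 and 23.8 in zone 3. In each zone the 3 libraries of dpc16 lay above all 3 of NP and all 3 of dpc8, and the 3 groups with the highest means of Hif1a were those of dpc16. NP and dpc8 overlapped in every zone.

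Averaged over zones, Hif1a was higher at dpc16 than in NP by a log2 difference of 0.86 ± 0.17 (limma adjusted p = 0.0346). Against dpc8 the difference was 0.77 ± 0.17 and missed the threshold (limma adjusted p = 0.0582). The call against NP was lost when any profile other than dpc16 replicate 3 was left out, with limma adjusted p from 0.0501 to 0.142 and differences from 0.69 to 0.95, and under a replicate block (limma adjusted p = 0.0878). It held without the 6 libraries with Y-linked signal (0.97 ± 0.17, limma adjusted p = 0.0113), where the difference from dpc8 passed too (0.86 ± 0.17, limma adjusted p = 0.0181). Over all genes, leaving out these libraries raised the number called from 399 to 730 against NP and from 277 to 769 against dpc8. By zone, the differences of dpc16 from NP were 0.72, 1.13 and 0.72 in zones 1, 2 and 3, each ± 0.22. Only zone 2 passed (limma adjusted p = 0.00559, against 0.137 and 0.128), as 1 of 10 genes where 2.66% of all genes did, and it passed without the 6 libraries with Y-linked signal as well (1.21 ± 0.24, limma adjusted p = 0.00663). Its call was kept when any of the 6 libraries compared was left out, and lost when only those 6 were fitted (limma adjusted p = 0.222). In zones 1 and 3 none of the 10 genes passed by limma (1.37% and 1.32% of all genes did). An unadjusted p below 0.05 was held by 2 of the 10 in each, and by 1424 and 1494 of all 12952 genes. That zones 1 and 3 differ in this change was not shown, with a difference between them of -0.01 (95% interval -0.66 to 0.64). Against dpc8, Hif1a passed in zone 2 with 0.89 ± 0.22 (limma adjusted p = 0.0447), as 1 of 10 genes where 1.51% of all genes passed. This call was lost without dpc8 zone 2 replicate 1 or 3, or dpc16 zone 2 replicate 1 or 2 (0.80 to 0.89, limma adjusted p from 0.121 to 0.236), and kept without the 6 libraries with Y-linked signal (1.07 ± 0.26, limma adjusted p = 0.0312). It was also lost under quantile normalization and when only the 6 libraries compared were fitted.

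The sum of 5 hepatocyte markers moved with stage. Outside the 6 libraries with Y-linked signal these markers summed to between 48234 and 118175 FPKM in NP, 47779 and 80515 at dpc8, and 175227 and 259565 at dpc16. With those 6 libraries the lowest dpc16 sum was 59581 FPKM, and none of the 5 markers was at 0 in any library. FPKM are by definition shares of the mapped fragments. Median-of-ratios scaling factors of the 27 libraries lay between 0.980 and 1.05, and refits with that scaling were among the alternatives. The part of the hepatocyte markers in the stage results was not tested.

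Pdk1 (chr2:71873224-71903858, plus strand) encodes a mitochondrial kinase that inhibits pyruvate dehydrogenase and so slows the entry of pyruvate carbon into the citric acid cycle. In NP its values were 44.5, 34.7 and 80.7 FPKM in zone 1, 105, 42.5 and 55.9 in zone 2, and 151, 33.8 and 109 in zone 3. At dpc8 they were 44.4, 91.7 and 96.7 FPKM in zone 1, 67.9, 63.9 and 113 in zone 2, and 109, 109.5 and 112 in zone 3. The dpc16 values were 25.3, 28.1 and 52.2 FPKM in zone 1, 46.1, 30.5 and 16.2 in zone 2, and 22.4, 23.4 and 36.3 in zone 3. All 3 dpc16 libraries of zones 2 and 3 lay below all of dpc8, and in zone 1 the groups overlapped. Against NP the groups overlapped in every zone. Averaged over zones, Pdk1 was lower at dpc16 than at dpc8 by -1.52 ± 0.31 (limma adjusted p = 0.0419). Against NP the difference was -1.09 ± 0.31 (limma adjusted p = 0.112). The call against dpc8 was lost without NP replicate 3, any of the 3 dpc8 profiles, or dpc16 replicate 1 or 2, with limma adjusted p from 0.064 to 0.162, and under a replicate block (limma adjusted p = 0.0695). It was also lost without the 6 libraries with Y-linked signal (-1.39, limma adjusted p = 0.0549), in which Pdk1 ran from 16.2 to 63.9 FPKM against 22.4 to 151 in the others. With no filter on level the call was lost too.

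By zone, Pdk1 passed against dpc8 in zone 3 with -2.00 ± 0.49 (limma adjusted p = 0.0388), as 1 of 10 genes where 1.37% of all genes passed. This call was lost when any of the 6 libraries compared was left out, with limma adjusted p from 0.0508 to 0.146 and differences from -2.22 to -1.88. It was also lost with no filter on level. Without the 6 libraries with Y-linked signal the difference was -2.22 ± 0.39 (limma adjusted p = 0.00351), and in zone 3 the difference from NP was then -2.44 ± 0.43 (limma adjusted p = 0.0039) in place of -1.59 ± 0.49 (limma adjusted p = 0.125). In NP zone 3, the library with Y-linked signal is replicate 2, at 33.8 FPKM beside 151 and 109. The differences in zones 1 and 2 against dpc8 were -1.11 and -1.44, each ± 0.49, and did not pass (limma adjusted p = 0.314 and 0.175). Zone 1 passed without the 6 libraries, with -1.47 ± 0.39 (limma adjusted p = 0.0441), and zone 2 did not, with -1.20 ± 0.43 (limma adjusted p = 0.149).

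Egln3 also passed at dpc16 in zone 1. There all 3 dpc16 libraries (6.47 to 10.46 FPKM) lay above all 6 libraries of NP and dpc8 (1.78 to 4.61). The zone 1 difference from dpc8 was 1.27 ± 0.32 (limma adjusted p = 0.0378), as 1 of 10 genes where 2.01% of all genes passed. It was lost when any of the 6 libraries compared was left out (0.99 to 1.48, limma adjusted p from 0.0511 to 0.195) and without the 6 libraries with Y-linked signal (0.99, limma adjusted p = 0.0696). A fit of only the 6 libraries compared lost the call as well. Against NP the difference was 1.23 ± 0.32 in zone 1 and missed the threshold (limma adjusted p = 0.0544), which it passed without the 6 libraries (1.29, limma adjusted p = 0.0234). Averaged over zones, Egln3 differed at dpc16 by 0.72 ± 0.22 from NP (limma adjusted p = 0.138) and by 0.97 ± 0.22 from dpc8 (limma adjusted p = 0.0624). Both passed without the 6 libraries with Y-linked signal, with 0.98 ± 0.20 (limma adjusted p = 0.0204) and 1.12 ± 0.20 (limma adjusted p = 0.00988). Vegfa had its lowest, median and highest values at 40.0, 55.8 and 72.8 FPKM in NP, and at 31.8, 39.8 and 70.0 at dpc16. The libraries overlapped, while the 3 profiles of dpc16 all lay below the 3 of NP, with a difference of -0.42 ± 0.14 that did not pass (limma adjusted p = 0.152). In zone 2 the libraries of dpc16 (35.1, 48.0 and 39.8 FPKM) also lay below all 3 of NP (55.7, 72.8 and 55.8).

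In each zone, none of the 10 genes passed for dpc8 against NP (0.0309%, 0.00772% and 0.0154% of all genes did in zones 1, 2 and 3). In zone 2, 1 of the 10 had an unadjusted p below 0.05, and in zones 1 and 3 none did. Of all 12952 genes, 406, 656 and 355 did in zones 1, 2 and 3. No gene of the 10 passed in the tests of whether a stage change differed between zones 1 and 3. Over all genes these tests called 0% for dpc8 against NP, 0.0540% for dpc16 against NP and 0.0463% for dpc16 against dpc8. None of the 10 had an unadjusted p below 0.05 in any of them (306, 409 and 741 of all 12952 genes did).

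Adm and Slc2a1 had their highest values in the libraries with Y-linked signal. Adm encodes adrenomedullin, a secreted peptide that widens vessels, and Slc2a1 encodes the glucose transporter GLUT1. Adm measured 9.66, 9.16, 15.2, 8.98, 56.3 and 26.05 FPKM in the 6 libraries with Y-linked signal, and 0.377 to 5.76 in the other 21. These sets of libraries did not overlap. Slc2a1 measured 14.7, 8.67, 14.1, 13.1, 32.7 and 20.0 FPKM in the same 6 libraries, and 2.40 to 9.33 in the others, so that 1 of the 6 lay within the range of the rest. In each of the 6 groups with such a library it held the highest Adm value, and in 5 of them the highest Slc2a1 value. Both genes spread widely within these groups, with Adm at 19.5 ± 31.9 FPKM (SD, n = 3) and Slc2a1 at 12.9 ± 17.1 FPKM (SD, n = 3) in dpc16 zone 2. Across the 27 libraries, these 6 included, Adm and Slc2a1 had a Pearson correlation of 0.85 on the log2 scale. The points share libraries and depth, and no test was made.

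**Figure D3:**
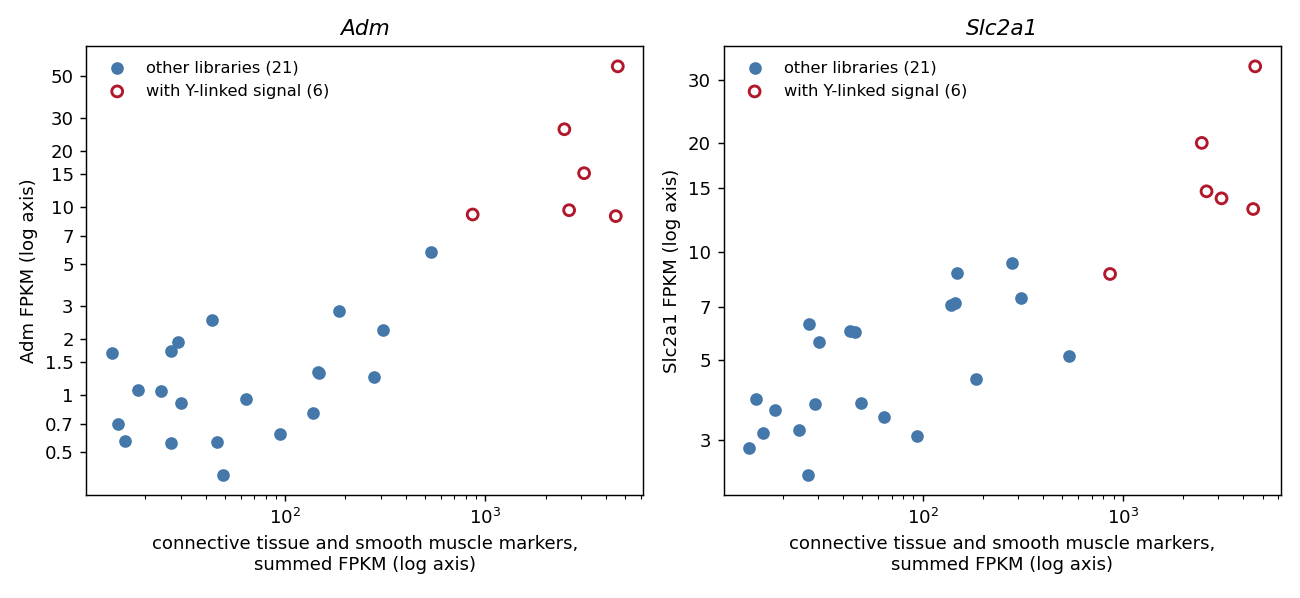
Adm and Slc2a1 (FPKM, log axis) in each of 27 libraries against the summed FPKM of 8 connective tissue and smooth muscle markers (log axis). The 6 libraries with Y-linked signal (open red circles) have marker sums of 865 to 4593 and hold every Adm value above 5.76 FPKM.

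As the plot against connective tissue markers shows, these markers were high in the same 6 libraries, and their part in the values of Adm and Slc2a1 was not tested. Of the 8 markers, Cnn1 was at 0 in 11 libraries and the other 7 in none. Neither gene passed between zones 1 and 3 (Adm 0.13, 95% interval -1.25 to 1.51, and Slc2a1 -0.26, 95% interval -1.09 to 0.57). The intervals narrowed without the 6 libraries, to 0.25 (-0.39 to 0.90) for Adm and -0.33 (-0.76 to 0.10) for Slc2a1, and neither passed. For dpc16 against NP, Slc2a1 had -0.37 ± 0.53 (limma adjusted p = 0.821), and -0.71 ± 0.26 without the 6 libraries (limma adjusted p = 0.153). Among the other libraries Slc2a1 was 2.40 to 4.44 FPKM at dpc16 and 3.47 to 9.33 in NP, which overlapped by 1 NP library. In zone 1 at dpc16, where no library was among the 6, Adm was 1.05, 0.558 and 2.81 FPKM and Slc2a1 was 3.19, 2.40 and 4.44 FPKM. Replicate 3, with the highest values of both, had a Y-linked sum of 2.97 FPKM and a connective tissue sum of 185 FPKM. Among the 21 other libraries the highest Adm value, 5.76 FPKM, was in dpc8 zone 1 replicate 2, with sums of 2.81 and 538 FPKM.

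Bnip3 and Epas1 passed in no comparison. Bnip3 encodes a mitochondrial protein that promotes the removal of mitochondria, and Epas1 encodes HIF-2 alpha, the alpha subunit most abundant in vessel walls. Bnip3 measured 30.5 to 69.7 FPKM in the 6 libraries with Y-linked signal and 46.6 to 142 in the others, and Epas1 35.1 to 127 against 61.8 to 158. Both were thus lower on the whole where Adm and Slc2a1 were high, and the correlation with Adm was -0.73 for Bnip3 and -0.64 for Epas1 over 27 libraries. Bnip3 had a median of 79.2 FPKM in zone 1 and 82.9 in zone 3, with overlapping groups and a difference of -0.07 (95% interval -0.63 to 0.49). Without the libraries with Y-linked signal the medians were 89.7 and 105.9 FPKM, again overlapping, and the difference was -0.26 (95% interval -0.71 to 0.19). The difference of Epas1 between zones 1 and 3 was -0.15 (95% interval -0.62 to 0.31). At dpc16 alone these zones did not overlap, with 127, 124 and 115 FPKM in zone 1 and 95.2, 109 and 64.9 in zone 3. In NP and at dpc8 they overlapped, and the means were higher in zone 3 (91.8 against 122 FPKM and 73.5 against 105). Epas1 had a median of 118 FPKM in NP, 76.9 at dpc8 and 115 at dpc16, with overlapping ranges of libraries. The largest of its averaged stage differences was -0.48 ± 0.26 for dpc8 against NP (limma adjusted p = 1), where the 3 dpc8 profiles all lay below the 3 of NP. In zone 2 its NP values (144, 90.0 and 139.8 FPKM) lay above those of dpc8 (71.8, 51.4 and 84.8), without passing the threshold (limma adjusted p = 0.971).

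Other genes of the pathway were taken from 4 lists. Among 15 regulators of HIF, such as its beta subunit Arnt and the ubiquitin ligase component Vhl, 14 were tested. None of these 14 passed in any of the 21 comparisons, in which from 0% to 5.59% of all genes did. Their zone 1 to zone 3 differences ran from -0.36 to 0.27. Hif3a was not tested.

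Of 18 glycolysis genes, 3 were higher in zone 1 than in zone 3 averaged over stages, none was lower and 15 did not pass, where 5.59% of all genes passed. The median of the list was 0.31, against 0.04 for all genes. Eno1, encoding enolase, had lowest, median and highest values of 353, 499 and 612 FPKM in zone 1 and 178, 226 and 422 in zone 3, a log2 difference of 0.93 ± 0.21 (limma adjusted p = 0.00682). Gpi1, encoding glucose-6-phosphate isomerase, had 112, 132 and 194 FPKM in zone 1 and 58.5, 74.3 and 92.1 in zone 3. These groups did not overlap, and the difference was 0.91 ± 0.15 (limma adjusted p = 0.000374). Gapdh, of the middle of the glycolytic pathway, differed by 0.71 ± 0.17 (limma adjusted p = 0.0106). Without the 6 libraries with Y-linked signal 5 genes were higher, with Pgam1 and Pgk1 added, where 1060 of all 12952 genes passed. Eno1 and Gpi1 were then also higher in zone 1 than in zone 2. In the averaged stage comparisons no gene of this list passed with all libraries, and without the 6 Aldoc was lower at dpc16 than in NP. Within zone 2, Aldoc was lower at dpc16 than in NP with all libraries too, by -2.37 ± 0.48 (limma adjusted p = 0.00637), and by -2.66 ± 0.55 without the 6 (limma adjusted p = 0.00866). Without the 6 it was also lower there than at dpc8 (-2.23 ± 0.60, limma adjusted p = 0.0479). Ldha, encoding lactate dehydrogenase A, had estimates of the opposite sign at dpc16, 1.32 ± 0.42 from NP and 1.26 ± 0.42 from dpc8, which did not pass with all libraries (limma adjusted p = 0.147 and 0.181). In the absence of the 6 libraries Ldha was higher at dpc16 than in NP in zones 2 and 3 (1.85 ± 0.37 and 2.00 ± 0.40) and than at dpc8 in the same zones (2.07 ± 0.40 and 1.75 ± 0.37), with limma adjusted p up to 0.0122. Thus the 3 glycolysis genes that passed had the opposite sign to Egln3 and Ndrg1 along the lobule.

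Of 40 further HIF targets, 35 were tested. Between zones 1 and 3, 3 were higher in zone 1 (Ak4, Igfbp3 and Tfrc), 2 were lower (Vldlr and Plod1) and 30 did not pass, with a median of 0.02, beside the same 5.59% and 0.04 for all genes. Ak4, a mitochondrial adenylate kinase, had 14.8, 27.7 and 63.4 FPKM as lowest, median and highest in zone 1, and 0.243, 5.35 and 18.0 in zone 3. Its difference was 2.34 ± 0.37 (limma adjusted p = 0.000158). Vldlr, a receptor for triglyceride-rich lipoproteins, had 0.308, 1.19 and 3.24 FPKM in zone 1 and 3.19, 7.50 and 28.4 in zone 3. Its difference was -2.19 ± 0.31 (limma adjusted p = 3.98e-05), and zone 2 was also lower than zone 3, by -1.59 ± 0.31 (limma adjusted p = 0.00443, and -1.95 ± 0.35 with 0.00333 without the 6 libraries). Igfbp3, a binding protein of insulin-like growth factors, had 11.6, 17.2 and 37.7 FPKM in zone 1 and 5.24, 7.55 and 14.6 in zone 3 (limma adjusted p = 0.0163). Plod1, a lysyl hydroxylase of collagen, differed by -0.44 ± 0.11 (limma adjusted p = 0.0149). Within stages, Ak4 passed at dpc16 (3.35 ± 0.63, limma adjusted p = 0.00334) and Vldlr in NP (-2.26 ± 0.54, limma adjusted p = 0.0321) and at dpc8 (-2.58 ± 0.54, limma adjusted p = 0.00964). The NP call of Vldlr was lost without the 6 libraries with Y-linked signal (-2.56 ± 0.64, limma adjusted p = 0.0532), and the Ak4 call and the dpc8 call of Vldlr were kept. The same 5 genes passed between zones 1 and 3 without the 6 libraries with Y-linked signal, and Hmox1 was then higher in zone 2 than in zone 3. The plot of the lists shows these genes beside the others.

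**Figure D4:**
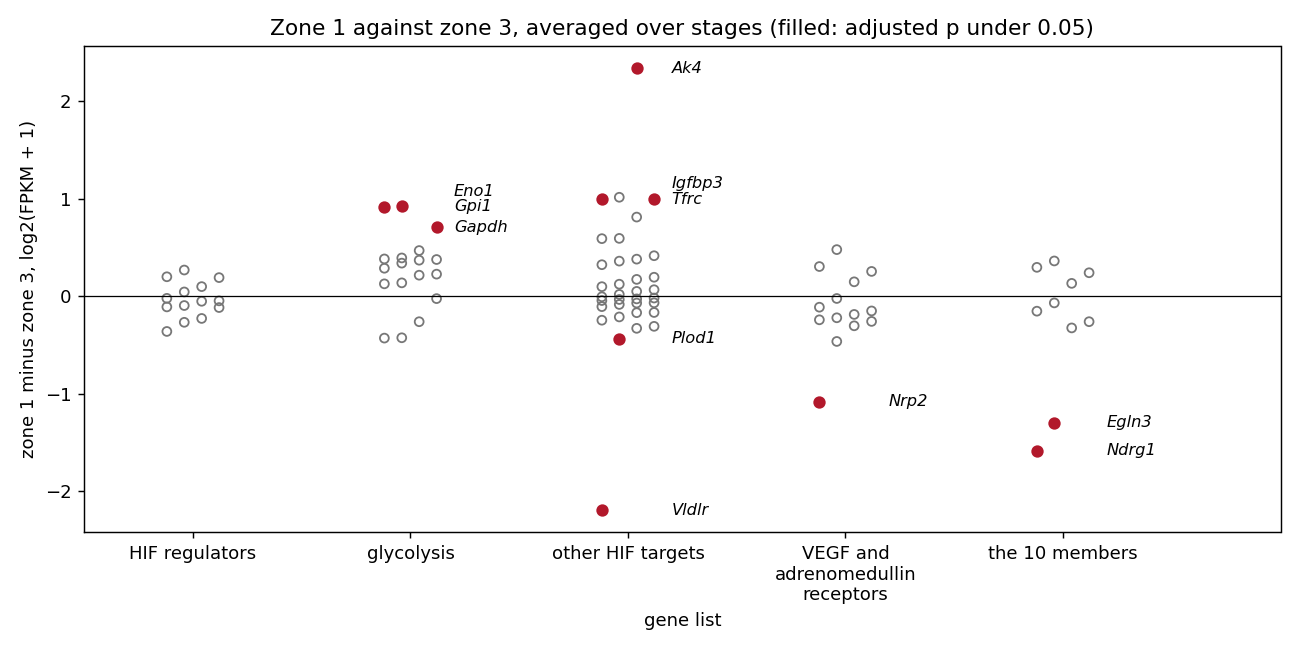
Fitted difference in log2(FPKM + 1) between zones 1 and 3, averaged over stages, for each tested gene of 4 lists and for the 10 genes. Filled red points passed the limma threshold and are named: 3 glycolysis genes above 0, 3 other targets above and 2 below 0, and Nrp2, Egln3 and Ndrg1 below 0.

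Tfrc, the transferrin receptor, was the only gene of the 4 lists that passed in an averaged stage comparison with all libraries. Without the 6 with Y-linked signal, Ddit4 and Gbe1 passed as well for dpc16 against dpc8, and Aldoc as given above for NP. In zone 3, Ak4 (-2.94) and Bhlhe40 (-2.57) were then lower and Igfbp1 (4.01) higher at dpc16 than in NP. Against dpc8, Gbe1 was lower in zones 2 and 3 (-1.63 and -1.47), and in zone 1 Ankrd37 was lower (-2.43) and Ddit4 higher (1.45). Tfrc had lowest, median and highest values of 6.72, 9.25 and 18.8 FPKM in NP, 5.14, 8.78 and 19.6 at dpc8 and 13.2, 29.9 and 64.5 at dpc16. The difference of dpc16 was 1.44 ± 0.27 from NP (limma adjusted p = 0.0242) and 1.57 ± 0.27 from dpc8 (limma adjusted p = 0.0215). The call against NP was lost without NP replicate 1 or 2 or dpc16 replicate 1 or 2, and that against dpc8 without any of the 3 dpc8 profiles or dpc16 replicate 1 or 2 (limma adjusted p up to 0.104 and 0.101). Both calls were also lost under a replicate block, and kept without the 6 libraries with Y-linked signal (1.32 and 1.53, limma adjusted p = 0.0415 and 0.0217). By zone, Tfrc was higher at dpc16 than in NP and at dpc8 in zones 1 and 2 (1.59 to 1.78, limma adjusted p up to 0.0251) and did not pass in zone 3. The zone 1 call against NP was lost without the 6 libraries (1.38 ± 0.39, limma adjusted p = 0.0718), and the other 3 of these calls were kept (limma adjusted p up to 0.00992). Between zones 1 and 3 Tfrc differed by 0.99 ± 0.21 (limma adjusted p = 0.0036). Of 14 ligands and receptors of the VEGF and adrenomedullin systems, 1 passed between zones 1 and 3, a share near the 5.59% of all genes. It was Nrp2, a co-receptor for VEGF family ligands. Its lowest, median and highest values were 2.86, 4.42 and 10.004 FPKM in zone 1 and 8.03, 11.1 and 17.3 in zone 3, a difference of -1.08 ± 0.19 (limma adjusted p = 0.000639), and of -1.31 ± 0.21 without the 6 libraries (limma adjusted p = 0.00053).

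Likeness of pattern was measured by Pearson correlation of log2(FPKM + 1) over the 27 libraries, among tested genes with a mean of at least 5 FPKM. Adm was closest to Plaur (0.96) and Rhoc (0.95), and Slc2a1 to Axl (0.93) and Ckap4 (0.92). Hif1a was closest to Fndc3b (0.91) and Sec13 (0.89), Pdk1 to Npc1 (0.90) and Selenoo (0.87), and Bnip3 to Slc16a5 (0.88) and Abcd3 (0.87). The nearest genes to Egln3 were Dhrs1 (0.86) and Rdh9 (0.84), and those to Ndrg1 were Avpr1a (0.80) and Slco1a1 (0.77). Epas1 was nearest to Rpain (0.80) and Ptprb (0.80), Vegfa to Tmem25 (0.78) and Plekha6 (0.77), and Egln1 only loosely to Nab2 (0.61). Among the 10 genes themselves, Egln3 and Ndrg1 had a correlation of 0.68, Bnip3 and Pdk1 of 0.60, and Hif1a and Pdk1 of -0.58. The points share zone, stage and library, so these values are descriptions.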

How the data were processed

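Per the labels and the study's methods, the authors depleted ribosomal RNA, aligned reads to mm10 with HISAT2 2.1.0 and computed the deposited FPKM with Cuffdiff of Cufflinks 2.2.1. FPKM carry no counts, so precision beyond the estimated depth is unknown, and reads of the antisense genes that overlap Hif1a, Adm, Slc2a1, Bnip3 and Ndrg1 may not be separable, nor those of Gm49321, a protein-coding gene on the strand of Hif1a. Groups and numbers came from the sample titles. Tests were two-sided, with limma 3.58.1 (R 4.3.3, trend and robust settings) on log2(FPKM + 1), which understates changes of low genes. The filter kept 12952 genes that reached 1 FPKM in 3 or more libraries, and p-values were adjusted by Benjamini-Hochberg over all of them within each of 21 comparisons, at a threshold of 0.05. A mean was fitted to each of 9 groups over 27 libraries. Stage comparisons averaged over zones used 9 profiles, each the mean log2 value of the 3 zone libraries with 1 stage and number. Without the 6 libraries with Y-linked signal, estimated zone effects were first subtracted, and each profile was the mean of the zones that remained. For dpc16 replicate 3 this was zone 1 alone, at the same weight as the other profiles. The 10 genes and the lists were chosen with earlier results of these data known. Named list genes passed in an averaged comparison, up to 5 per list and direction, and up to 2 genes of like pattern were named per gene. Aldoc, Ldha, Pgam1, Pgk1, Hmox1, Ddit4, Gbe1, Bhlhe40, Igfbp1 and Ankrd37 were named after their values were seen. The fit was tested on simulated data, with known log2 changes added to the dpc16 libraries. A change of 1 was called against NP in 22 of 100 genes in zone 1 and in 54 of 100 averaged over zones. A change of 2 was called in 79 and 94 of 100. Alternatives were the pseudocount (0.1), the filter, scaling, array weights, a replicate block, fewer libraries and leaving out each library or profile. Deviations of same-numbered libraries from their group means correlated by more than 0.1 in 9 of 9 pairs of zones at dpc16 (0.26 to 0.86). The pair at 0.86 was replicate 3 of zones 2 and 3, both libraries with Y-linked signal. Whether the numbers pair the zones there was not tested apart from that signal. The fits reported have no block, which was an alternative and changed no call of the 10 genes within dpc16. In NP and at dpc8 fewer pairs of zones correlated by more than 0.1 (4 and 5 of 9), and libraries of 1 zone across stages did not do so in all pairs either. What the number stands for is not labelled.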

Additional observations from a re-analysis of the deposited data

How the results depend on the processing

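The counts below are of the 10 genes called by limma, and no called difference changed sign under any alternative. Over 11 called gene and comparison pairs, 156 of 204 alternative fits kept the call and 48 lost it, and the calls of Egln3 and Ndrg1 between zones 1 and 3 averaged over stages held in all. Among the uncalled pairs, 31 of 3516 fits gained a call and 240 changed sign. With array weights the counts rose to 2 (from 1) between zones 1 and 3 at dpc8, 2 (from 0) at dpc16, 2 (from 1) for dpc16 against NP, and 2 and 1 (from 0) for the same in zones 1 and 3. For dpc16 against dpc8 they rose from 1 to 4 averaged over zones, and to 3, 2 and 3 in zones 1, 2 and 3. In these same 9 comparisons array weights raised the genes called over all genes from between 171 and 399 to between 496 and 2364. Fitting only the 6 libraries compared left 0 (from 1) between zones 1 and 3 in NP and at dpc8, for dpc16 against NP in zone 2, and for dpc16 against dpc8 in zones 1 and 2. No filter on level left 0 (from 1) for dpc16 against dpc8, averaged and in zone 3. Quantile normalization left 0 (from 1) for it in zone 2, and moved the median of all genes by over 0.1 only between zones 1 and 3 at dpc8 (-0.12) and in the test of whether dpc16 against dpc8 differed between zones (0.16). With 27 libraries as separate replicates, both averaged dpc16 comparisons had 3 (from 1). Without the 6 libraries with Y-linked signal both had 2, and dpc16 against NP had 1 (from 0) in zones 1 and 3, while the calls over all genes rose to 730 and 769 (from 399 and 277), and to 378 and 468 (from 177 and 171). With a replicate block, the count was 2 at dpc8 between zones 1 and 3, with Ndrg1 added (adjusted p = 0.0307), and 0 (from 1) for dpc16 against NP (Hif1a, adjusted p = 0.0878) and against dpc8 (Pdk1, adjusted p = 0.0695). It changed no other count by over 1.5 times, and no call of the 10 genes within dpc16. Leaving out 1 library gave 0 to 1 between zones 2 and 3, between zones 1 and 3 in NP and at dpc8, for dpc16 against NP in zone 3 and against dpc8 in zone 2, and 0 for dpc16 against dpc8 in zones 1 and 3. Leaving out 1 profile gave 0 to 1 for dpc16 against NP and 0 to 3 for dpc16 against dpc8. The cause of these changes was not tested. With 3 libraries per group, changes within 1 zone can be missed, and most log2 changes of 1 were missed in the simulated data (22 of 100 called).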
